A study of Mus musculus with 16 samples.

Results

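The replication-dependent histone genes encode the bulk of the histones H1, H2A, H2B, H3 and H4, and most of them stand together in the genome in clusters. Members were all genes of the count table whose symbol begins with H1f, H2ac, H2bc, H3c or H4c and ends with a number. They were 70 of 56748 genes, with 11 in class H1, 18 in H2A, 17 in H2B, 12 in H3 and 12 in H4. By position, 65 of them were clustered. Of these, 55 lay on chromosome 13 between 21899933 and 24118834 (GRCm39) and 10 on chromosome 3 between 96127181 and 96177448. The other 5 members, H1f0 and H1f7 on chromosome 15, H1f8 and H1f10 on chromosome 6 and H1f9 on chromosome 11, lay outside the clusters, so the name clustered is not true of them.

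The samples were memory CD4+ T cells (Tmem in the labels) sorted from the spleen, by the study's methods on surface markers that included CD4, CD25 and CD44, and profiled by RNA-seq. In the HP1α line (HP1a in the labels), KO mice carried both Hp1a alleles excised, by a CMV-cre active in all tissues, and the WT were Hp1a+/+ littermates. In the HP1γ line (HP1g), every mouse was homozygous for a floxed Hp1g allele, the KO also carried a Cre driven by Cd4, and the WT littermates carried no Cre, so loss of HP1γ and presence of Cre cannot be told apart. Both lines were on a mixed 129/Sv and C57BL/6 background, and by the study's methods mice were sex-matched littermates of 6 to 12 weeks. The study's reporting summary states that male mice were used for the sequencing work. Each of the 4 groups held 4 samples. The labels do not say that replicates were separate animals, and p-values here measure the spread between these samples. A treatment field of the labels speaks of transferred Treg, for which the methods of these sorted cells have no step, and it was not used.

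Histone mRNAs of this family rise as cells enter S phase, when new DNA has to be packed. They are the one class of animal mRNA that normally ends without a poly(A) tail: a short hairpin after the stop codon is bound by SLBP, and the transcript is cut just past it with the help of the U7 snRNP. NPAT drives their transcription at histone locus bodies, while replacement genes elsewhere, such as those for H3.3, give polyadenylated mRNA in all phases of the cycle. H1f0 is a linker histone gene of this second kind, known from resting and differentiated cells. The libraries were made from polyA RNA, so that transcripts cut at the hairpin lacked the tail used for capture, and the levels below are not the total amount of histone mRNA.

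The hairpin was searched on the coding strand within 150 bases after the annotated stop codon, as the 16-base histone stem-loop with 5 of its positions free to be any base. It was found in 60 of the 65 clustered members, in 0 of the 5 others and in 72 of all 21665 protein-coding genes, or 0.332%. Distances after the stop codon ran from 22 to 59 bases with a median of 31. Of 7 distinct 16-base forms, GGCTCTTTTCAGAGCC was in 39 members, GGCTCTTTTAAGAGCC in 9, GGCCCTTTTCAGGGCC in 7 and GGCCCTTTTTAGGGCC in 2. All H4 hairpins found had the stem that starts GGCCC, and those of the other classes had the stem that starts GGCTC. The forms are shown for members of 4 classes that recur in the results, in GRCm39, 5′ to 3′ on the coding strand, with the hairpin in capitals and 5 bases on either side in lower case.
H1f2 (chr13:23923495-23923510, plus strand): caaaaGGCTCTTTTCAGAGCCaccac
H2ac19 (chr3:96147100-96147115, minus strand): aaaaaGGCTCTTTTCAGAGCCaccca
H3c3 (chr13:23929030-23929045, minus strand): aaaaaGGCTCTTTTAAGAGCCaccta
H4c9 (chr13:22225136-22225151, minus strand): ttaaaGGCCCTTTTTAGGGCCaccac

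Annotated gene models differed in where they stopped. Those of 24 members ran more than 100 bases past the hairpin, those of 20 ended within 100 bases past it and those of 16 ended before its last base. The median of the members' mean TPM (transcripts per 1000000, a level per length) was 0.910 in the first of these sets, 2.20 in the second and 0.986 in the last. The length of the model enters both the TPM and the drawing of these sets. These medians therefore do not show that genes of 1 set are more expressed than those of another. The most abundant hairpin gene, H1f2, has a model that runs 840 bases past its hairpin. H2ac14, H2ac22, H2bc21, H4c2 and H4c11 were the clustered members without a match in this window.

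The members were low in these cells. Summed over all 70 genes they took 0.0176% to 0.0315% of a library's counts. Of the 70, 7 were at 0 in all 16 samples, 8 had at most 3 counts in every sample, 41 had a mean of at least 10 counts and 7 a mean of at least 100. By mean TPM over all samples 37 reached 1 and 10 reached 5. H1f0 and H1f2 together held 68.6% to 76.2% of the members' counts, and with H2ac19 and H2ac18 the share was 76.8% to 84.5%.

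In class H1 the highest mean TPM were 88.0 for H1f2, a replication-dependent linker histone gene, and 69.3 for H1f0. In class H2A they were 61.1 for H2ac19 and 28.8 for H2ac18, both genes of canonical H2A in the chromosome 3 cluster. These genes share 528 bases at 100% identity, so their separate levels rest on an estimated division of reads. The leading H2B genes were H2bc4 at 7.67 TPM and H2bc8 at 6.01 TPM, the leading H3 genes H3c13 at 4.88 TPM and H3c1 at 3.86 TPM, and the leading H4 genes H4c9 at 9.15 TPM and H4c17 at 7.58 TPM. The median member stood at 0.777 TPM in H1, 1.18 in H2A, 0.818 in H2B, 0.878 in H3 and 2.65 in H4. H4 thus had the highest median, although its leading member stood far below those of H1 and H2A. Among the members outside the clusters, H1f0 alone was abundant, H1f10 had a mean of 0.981 TPM, H1f8 reached at most 0.0742 TPM and H1f7 and H1f9 were at 0 in all 16 samples.

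**Figure D1:**
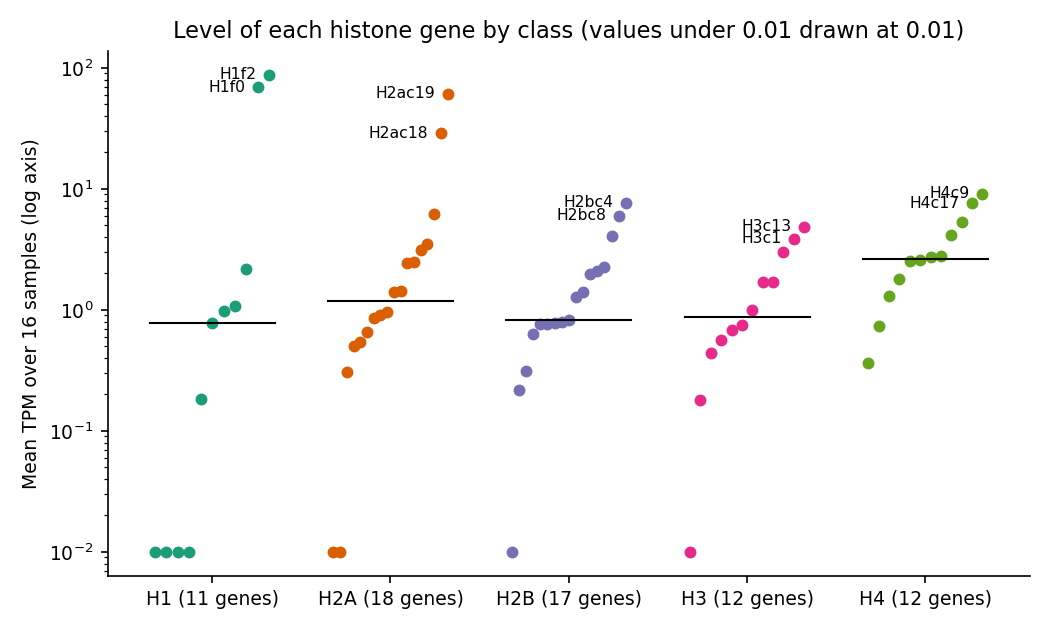
Each point is a histone gene at its mean TPM over the 16 samples, on a log axis, by class, with the class median as a line and the highest 2 genes of each class named. H1f2, H1f0, H2ac19 and H2ac18 stand between 28.8 and 88.0 TPM and every other member below 10 TPM.

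The leading genes differ in what lies before their start sites. RefSeq promoters (GRCm38.p6, 250 bases before to 50 after the start) matched 62 of the 70 members by symbol. On either strand, CCAAT was in 51 of the 62, or 82.3%, against 41.1% of 27025 genes, with all 17 H2A, 14 H2B and 10 H3 promoters but 3 of 11 H4 promoters holding it. TATAAA was in 34 of 62 against 15.7% of genes, the H1 box AAACACAA in 4 of 10 H1 promoters against 2.26%, and the octamer ATTTGCAT in 7 of 14 H2B and 6 of 17 H2A promoters against 1.97%. No motif's letters contain another's, and a match is a description only. The windows of the 4 most abundant members follow, on the gene's strand, because the H1 genes differ in these motifs and the H2A pair shares an identical run of 219 bases. That run starts at base 82 of the H2ac19 window and base 42 of the H2ac18 window, and it is cut by the end of the H2ac19 window. The TATAAA of H2ac18 lies past that point, so the windows do not show whether H2ac19 lacks it. Capitals mark the matches.
H1f2 (chr13:23738557-23738856, plus strand): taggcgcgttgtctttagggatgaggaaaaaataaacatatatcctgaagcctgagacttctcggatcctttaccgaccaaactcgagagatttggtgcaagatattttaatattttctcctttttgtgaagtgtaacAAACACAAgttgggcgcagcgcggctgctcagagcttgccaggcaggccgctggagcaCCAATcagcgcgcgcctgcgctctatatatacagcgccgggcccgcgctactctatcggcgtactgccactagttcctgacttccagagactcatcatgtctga
H1f0 (chr15:79027962-79028261, plus strand): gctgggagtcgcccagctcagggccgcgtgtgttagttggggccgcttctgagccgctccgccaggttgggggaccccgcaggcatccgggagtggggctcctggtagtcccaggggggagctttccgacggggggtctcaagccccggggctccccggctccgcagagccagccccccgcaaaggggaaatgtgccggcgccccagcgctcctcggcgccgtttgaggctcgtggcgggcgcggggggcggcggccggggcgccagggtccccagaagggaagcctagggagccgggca
H2ac19 (chr3:96240325-96240624, minus strand): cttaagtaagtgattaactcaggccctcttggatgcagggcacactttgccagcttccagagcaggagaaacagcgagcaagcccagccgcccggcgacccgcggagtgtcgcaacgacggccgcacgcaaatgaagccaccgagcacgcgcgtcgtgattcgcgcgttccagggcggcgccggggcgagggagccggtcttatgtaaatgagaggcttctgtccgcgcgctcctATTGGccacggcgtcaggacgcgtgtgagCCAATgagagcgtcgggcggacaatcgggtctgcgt
H2ac18 (chr3:96245247-96245546, plus strand): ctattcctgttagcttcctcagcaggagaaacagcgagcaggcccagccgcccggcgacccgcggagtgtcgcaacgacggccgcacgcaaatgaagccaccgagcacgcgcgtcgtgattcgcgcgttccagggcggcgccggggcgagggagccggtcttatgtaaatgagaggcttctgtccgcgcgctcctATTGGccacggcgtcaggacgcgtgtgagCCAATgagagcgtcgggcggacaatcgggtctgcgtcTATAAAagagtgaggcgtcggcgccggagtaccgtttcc
The H1f2 window holds an H1 box and a CCAAT box, whereas that of H1f0 holds none of the 4 motifs and is 75.0% G and C, against 50.3% in H1f2.

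Before the comparisons, the libraries were examined. Deposited estimated counts summed to between 26694045 and 40199637 per sample, and 3 counts, taken as the floor of detection for counting error, correspond to 0.0751 to 0.114 CPM (counts per 1000000, scaled by TMM factors). The CD4 T cell markers Cd3d, Cd3e, Cd3g, Cd4 and Trac summed to 2616 to 3067 CPM and the memory markers Cd44, Il2rb, S100a4 and Itgb1 to 2287 to 3164 CPM. Treg markers Foxp3, Il2ra and Ikzf2 summed to 191 to 385 CPM. Markers of CD8 T cells stood at 5.09 to 18.5 CPM, of B cells at 6.17 to 24.5 CPM, of NK cells at 30.2 to 56.1 CPM and of myeloid cells at 22.6 to 111 CPM, with no marker at 0 in every sample (Klra8 was at 0 in 7 and S100a8 in 4). The erythroid markers Hbb-bs, Hba-a1 and Alas2 varied most, from 10.3 to 737 CPM. Cbx5, which encodes HP1α, was at 28.7, 27.6, 23.0 and 29.0 CPM in HP1α KO and 37.8, 54.0, 35.7 and 33.8 CPM in HP1α WT, lower in every KO sample but not absent (exact permutation p = 0.0286, the smallest possible with 4 against 4, and edgeR adjusted p = 0.946). Counts per gene do not show whether the deleted exons were gone. Cbx3, which encodes HP1γ, was at 50.3, 46.3, 45.9 and 47.5 CPM in HP1γ KO and 92.5, 90.2, 73.4 and 82.0 CPM in HP1γ WT (edgeR adjusted p = 0.00150).

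The first comparison asked what loss of HP1α, a reader of methylated H3K9 in heterochromatin, did to histone transcripts. No member passed edgeR's quasi-likelihood test at an adjusted p of 0.05, where 0% of the 14881 genes tested did, and DESeq2 called 0 members as well. Of the 43 members that passed the filter on low counts, 36 had a lower mean in KO and 7 a higher one, with a median log2 fold change of -0.31, while over all genes 49.1% were lower and the median was 0.00. All 7 H3 and all 10 H4 members tested were on the lower side, as were 10 of 11 H2B members, while H1 and H2A were mixed with 4 of 6 and 5 of 9 lower. Over the 41 members with a mean of at least 10 counts in all samples, a set that neither group decides, 34 were lower and 7 higher.

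By class, the median log2 fold change in HP1α KO against WT was -0.22 in H1, -0.14 in H2A, -0.36 in H2B, -0.29 in H3 and -0.30 in H4. The sum over each class weights the members by abundance and gave 0.03 in H1, 0.06 in H2A, -0.36 in H2B, -0.43 in H3 and -0.36 in H4. The sums of H1 and H2A are led by H1f0, H1f2, H2ac18 and H2ac19. The sign of the H2A median rested on single libraries: it became 0.04 without KO replicate 1, 0.0077 without KO replicate 4 and 0.11 without WT replicate 1. That of H1 kept its sign but ranged from -0.43 without WT replicate 4 to -0.016 without WT replicate 3, and that of H3 from -0.44 to -0.20. H4 transcripts summed to 9.61, 10.2, 8.24 and 9.92 CPM in KO and 12.2, 11.2, 14.8 and 10.6 CPM in WT, and these groups did not overlap. H3 transcripts summed to 5.75, 3.92, 4.81 and 4.65 CPM in KO and 6.17, 5.43, 9.33 and 4.76 CPM in WT, with overlap. H2B transcripts summed to 15.2, 12.2, 12.8 and 11.5 CPM in KO and 17.1, 15.5, 20.2 and 13.5 CPM in WT, also with overlap. In each of these 3 classes WT replicate 3 was the highest of the 8 samples.

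Markers of proliferating cells lay on the same side as these sums. The list of 30 S-phase and cycling genes summed to 1322, 1182, 1368 and 1457 CPM in HP1α KO and 1444, 1535, 1706 and 1291 CPM in HP1α WT, with WT replicate 3 again the highest, and 28 of its 30 genes had a lower mean in KO (median log2 fold change -0.20), none past the adjusted threshold and 4 past an unadjusted p of 0.05. Their part in the histone difference was not tested, and fewer cycling cells and less RNA per cell cannot be told apart in bulk samples. WT replicate 3 also had the most erythroid RNA of the HP1α line, 328 CPM against 10.3 to 114 in the other 7. Without it, 29 of 43 members were lower and 14 higher, the median was -0.19, 7 of 10 H4 and 5 of 7 H3 members were lower, and the H4 sums still did not overlap.

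Members H2bc9, H4c14 and H3c11 were past an unadjusted p of 0.05, against 4.27% of all genes, and each was of low count. H2bc9 is an H2B gene of the chromosome 13 cluster that shares 381 bases with the member H2bc4 at 98.2% identity. It was at 0.336, 0.364, 0.324 and 0.595 CPM in KO and 0.953, 1.12, 1.15 and 0.840 CPM in WT. The highest KO sample lay under the lowest WT sample (log2 fold change -1.33, SE 0.29, unadjusted p = 0.000912, adjusted p = 0.946 by edgeR). H4c14, an H4 gene of the chromosome 3 cluster whose sequence no other gene shared, was at 0.525, 0.541, 0.589 and 0.438 CPM in KO and 1.31, 0.706, 0.698 and 0.979 CPM in WT, likewise without overlap (log2 fold change -0.82, SE 0.29, unadjusted p = 0.0176, adjusted p = 0.946). H3c11 was at 0.265, 0.179, 0.337 and 0.344 CPM in KO and 0.408, 0.459, 0.938 and 0.508 CPM in WT (log2 fold change -1.01, SE 0.36, unadjusted p = 0.0188, adjusted p = 0.946). It shares its sequence with 4 other members, between which estimated counts are divided. With H4c9, at 2.998 ± 0.306 CPM in KO and 3.82 ± 0.581 CPM in WT (SD, n = 4 each), these were the 4 members whose groups did not overlap, where 2.96% of all genes had no overlap. The 2 abundant linker genes differed by less than the SD of their groups. H1f2 was at 71.9 ± 9.47 CPM in KO and 69.3 ± 8.97 CPM in WT, and H1f0 at 89.1 ± 11.7 and 87.7 ± 21.7 CPM.

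**Figure D2:**
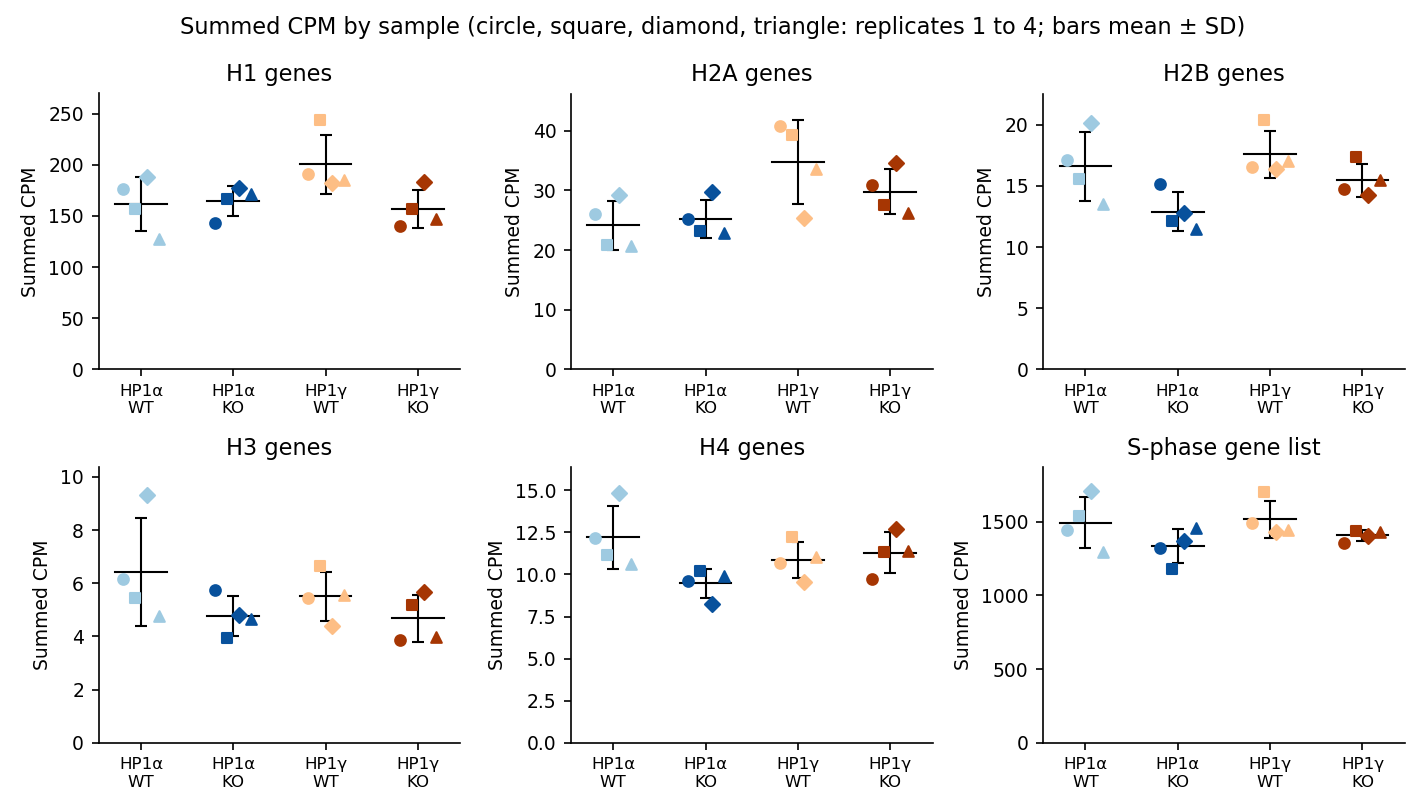
Summed CPM of each histone class and of the S-phase gene list in each of the 16 samples, with symbols for replicates 1 to 4 and bars for the mean and SD of each group of 4. The H4 sums of HP1α KO, at most 10.2 CPM, all lie below those of HP1α WT, at least 10.6 CPM, and HP1α WT replicate 3 is the highest sample for H3, H4 and the S-phase list.

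Loss of HP1γ, the isoform also found in transcribed chromatin, was compared in the same way. No member passed the adjusted threshold by edgeR, where 0.327% of the 14975 genes tested did, and DESeq2 called 1, H1f0. Of 39 members tested, 28 had a lower mean in HP1γ KO and 11 a higher one, with a median log2 fold change of -0.17 against 0.00 for all genes, of which 49.9% were lower. All 6 H1 members tested were on the lower side, as were 8 of 9 H2A, 7 of 8 H2B and 4 of 6 H3 members, but 7 of 10 H4 members were on the higher side. The class medians were -0.31 in H1, -0.24 in H2A, -0.20 in H2B, -0.17 in H3 and 0.10 in H4. The class sums gave -0.35 in H1, -0.22 in H2A, -0.18 in H2B, -0.24 in H3 and 0.05 in H4, and the sum of all members -0.30. Leaving out KO replicate 4 turned the H3 median to 0.06, and leaving out KO replicate 2 brought that of H4 to -0.0029. The H1 median fell in size to -0.09 without WT replicate 2, and that of H2B to -0.022 without WT replicate 1 and -0.029 without WT replicate 2. Whether the classes differed from each other was not tested.

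H1f0, the linker histone gene of resting cells (chr15:78912650-78914704, GRCm39), was at 58.7, 67.8, 76.0 and 72.5 CPM in HP1γ KO and 81.7, 122, 96.0 and 90.8 CPM in HP1γ WT. The groups did not overlap, with the KO lower. The fitted difference was log2 fold change -0.50, SE 0.12, with an unadjusted p of 0.00227, and did not pass adjustment by edgeR (adjusted p = 0.188), whereas DESeq2 gave an adjusted p of 0.0170. In HP1α WT, H1f0 was at 91.6, 94.5, 108 and 57.0 CPM. The KO levels of the HP1γ line lie within that range only through HP1α WT replicate 4. They lie below every other HP1α WT sample. Erythroid markers summed to 631, 737, 51.6 and 519 CPM in HP1γ KO and 28.8, 299, 323 and 43.9 CPM in HP1γ WT, and their part in the H1f0 difference was not tested.

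The other members past an unadjusted p of 0.05, where 11.9% of all genes were, had few counts. H3c3, whose sequence 1 other member shares, was at 0.180, 0.289, 0.0660 and 0.423 CPM in KO and 0.545, 0.795, 0.470 and 0.563 CPM in WT (log2 fold change -1.24, SE 0.45, unadjusted p = 0.0201, adjusted p = 0.359 by edgeR). H2ac24 was at 1.09, 0.954, 0.764 and 0.832 CPM in KO and 1.11, 1.36, 1.27 and 1.66 CPM in WT (log2 fold change -0.57, SE 0.24, unadjusted p = 0.0378, adjusted p = 0.395), and 9 other members share its sequence. H1f0, H3c3 and H2ac24 were the members without overlap of the groups, against 7.11% of all genes. H2bc9 was at 0.655 ± 0.142 CPM in HP1γ KO and 0.968 ± 0.119 CPM in HP1γ WT (SD, n = 4 each), with overlap (exact permutation p = 0.0571). H1f2 was at 83.4 ± 13.7 and 97.4 ± 14.8 CPM and H2ac19 at 15.8 ± 2.54 and 18.7 ± 3.97 CPM, which was not beyond the spread of the samples (exact permutation p = 0.171 and 0.314).

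The S-phase list also had 26 of 30 genes lower in HP1γ KO (median log2 fold change -0.14), and its sum was 1353 to 1437 CPM in KO and 1431 to 1699.9 CPM in WT, with none of the 30 past the adjusted threshold and 7 past an unadjusted p of 0.05. Of 19 genes for histone mRNA transcription and 3′ processing, 12 were lower in HP1α KO and 8 in HP1γ KO, with medians of -0.04 and 0.03. Of 25 histone chaperone genes, 20 and 14 were lower, with medians of -0.08 and -0.01. Of 10 other histone genes tested, among them those for H3.3, 5 and 8 were lower, with medians of 0.02 and -0.11. None of these genes passed the adjusted threshold of edgeR or of DESeq2 in either knockout. At an unadjusted p of 0.05, which 4.27% of all genes passed in HP1α KO and 11.9% in HP1γ KO, the processing list had 2 genes in each, the chaperone list 1 and 5, and the other histone genes 0 and 3.

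**Figure D3:**
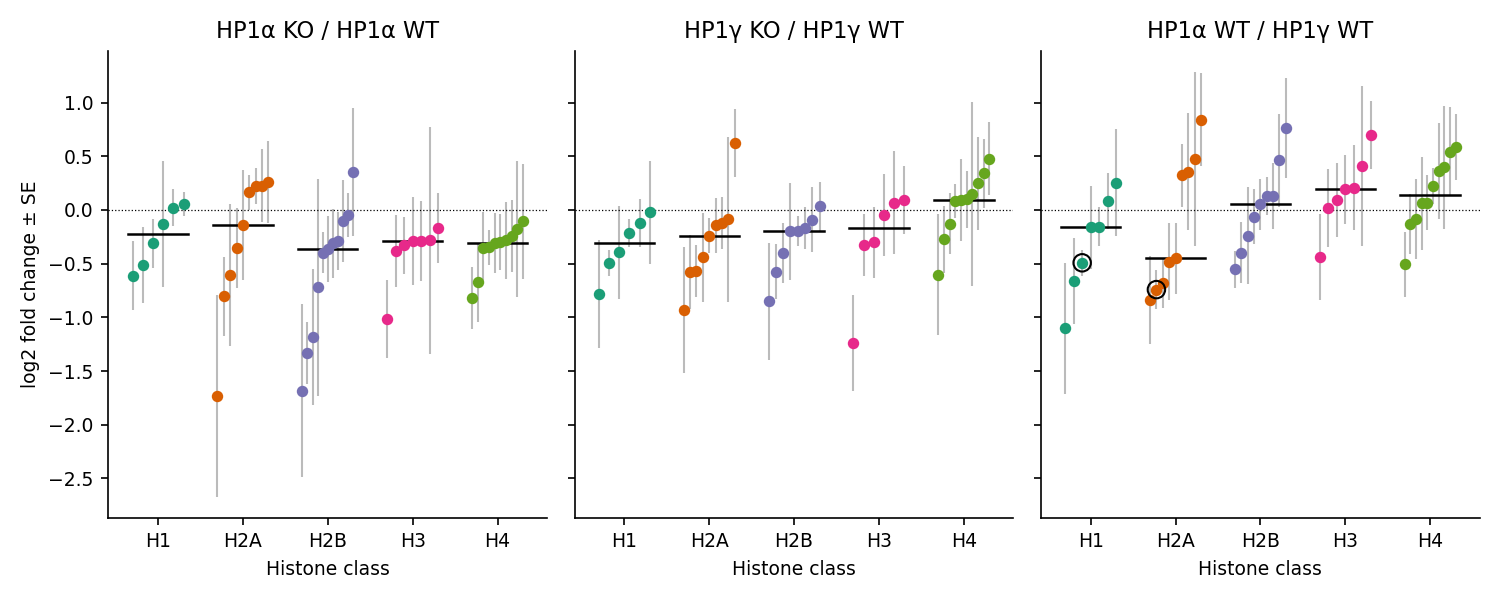
The log2 fold change with its SE for every member that passed the filter on low counts, by class, in the 3 comparisons; lines are class medians and circles mark members past an adjusted p of 0.05. All H3 and H4 points of HP1α KO against WT lie below 0, the H4 median of HP1γ KO against WT is 0.10, and the only circled points are H1f2 and H2ac19 between the WT groups.

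The difference of the knockout effects between lines was then fitted over all 16 samples, as the HP1α effect minus the HP1γ effect. No member passed the adjusted threshold by edgeR, where 0.0507% of 15776 genes did, nor by DESeq2. At an unadjusted p of 0.05, which 9.58% of all genes passed, 2 of 46 members tested did. They were H4c14 (log2 fold change -1.15, SE 0.44, adjusted p = 0.440) and H1f0 (log2 fold change 0.53, SE 0.23, adjusted p = 0.487). The next was H4c9 (log2 fold change -0.42, SE 0.20, adjusted p = 0.524). By count, 27 of 46 members had a negative difference, against 49.4% of all genes, with 9 of 10 H4 members negative and 7 of 10 H2A members positive. Hence no histone gene was shown to respond differently to the 2 knockouts.

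Between the WT groups H1f2 and H2ac19, which are among the 4 most abundant members, were lower in the HP1α line. The 2 groups come from different crosses, and the line, its rearing and any handling in separate batches cannot be told apart. The memory markers also differed, at 2383 to 2458 CPM in HP1α WT and 2796 to 3164 CPM in HP1γ WT without overlap, while the summed CD4, CD8, Treg, B cell, NK cell, myeloid, erythroid and S-phase lists overlapped, and the part of the memory markers in the histone differences was not tested. Of 14804 genes tested, 1896 were called, or 12.8%, with 8.25% lower in HP1α WT. Of 42 members these 2 were called, a smaller share than that of all genes. H1f2 (chr13:23922791-23924350, GRCm39) was at 79.3, 58.5, 73.1 and 66.3 CPM in HP1α WT and 103, 116, 83.3 and 87.6 CPM in HP1γ WT. The groups did not overlap (log2 fold change -0.49, SE 0.12, adjusted p = 0.0278 by edgeR). H2ac19 (chr3:96147065-96147592) was at 12.2, 8.92, 13.8 and 9.91 CPM in HP1α WT and 21.4, 22.1, 13.5 and 17.9 CPM in HP1γ WT, where HP1γ WT replicate 3 fell within the range of the other group (log2 fold change -0.74, SE 0.18, adjusted p = 0.0256). Both calls were lost on leaving out any one of HP1α WT replicates 2 and 4 and HP1γ WT replicates 1 and 2, with adjusted p between 0.0597 and 0.0819, and without HP1α WT replicate 1 that of H2ac19 was lost too (0.0649).

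H2ac18 (chr3:96152813-96153398) lies close to H2ac19 on the opposite strand and shares 528 bases with it at 100% identity. This run covers the whole annotated H2ac19 gene, which shares sequence with 5 other genes in all, 1 of them a member. H2ac18 was at 8.08, 5.19, 5.92 and 5.54 CPM in HP1α WT and 13.3, 10.6, 5.92 and 9.78 CPM in HP1γ WT (log2 fold change -0.68, SE 0.23, adjusted p = 0.0727). Reads that fit both genes were divided by estimate, and the counts of H2ac19 alone rest on that division. The sum of H2ac18 and H2ac19 was therefore also taken, without the other sharing genes. It was 17.4 ± 3.08 CPM in HP1α WT and 28.6 ± 6.85 CPM in HP1γ WT (SD, n = 4 each), again with HP1γ WT replicate 3 inside the range of HP1α WT. The ratio of H2ac19 to H2ac18 counts lay between 1.36 and 2.34 over the 16 samples. H2bc4, the leading H2B gene, was at 5.08, 3.39, 4.67 and 3.82 CPM in HP1α WT and 5.42, 7.25, 6.12 and 6.02 CPM in HP1γ WT, without overlap (log2 fold change -0.55, SE 0.17, adjusted p = 0.0552). DESeq2 and the fit over all 16 samples called H2bc4 and H2ac18 along with the first pair. H1f0 was at 87.7 ± 21.7 CPM in HP1α WT and 97.5 ± 17.1 CPM in HP1γ WT and was not called (adjusted p = 0.604). The annotated model of H2bc4 runs 9518 bases past its hairpin and overlaps H2ac6 on the opposite strand, and 8 other members share sequence with it.

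**Figure D4:**
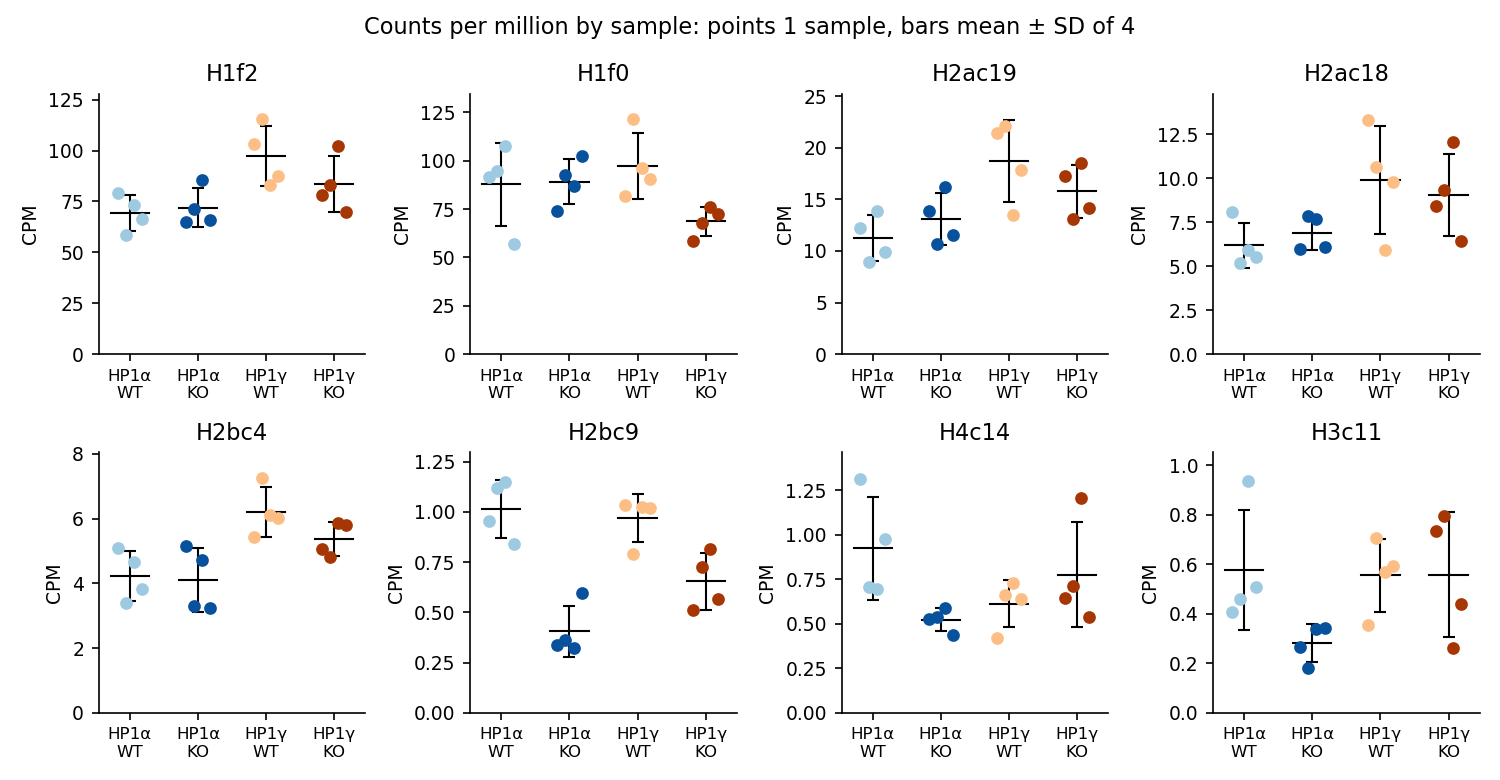
CPM of 8 members in each sample, with the mean and SD of each group of 4. H1f2, H2ac19, H2ac18 and H2bc4 have lower means in HP1α WT than in HP1γ WT, H1f0 is lower in all HP1γ KO samples than in HP1γ WT, and H2bc9, H4c14 and H3c11 are lower in all HP1α KO samples than in HP1α WT.

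Over all members no such direction was seen. At an unadjusted p of 0.05, 4 of 42 members passed against 29.9% of all genes, and 2, H1f2 and H2bc4, had no overlap against 19.5%. By mean, 24 members were higher in HP1α WT and 18 lower, where 47.9% of all genes were lower, with a median of 0.06, and class medians were -0.16 in H1, -0.45 in H2A, 0.05 in H2B, 0.19 in H3 and 0.14 in H4. Leaving out 1 library, the H1 median ranged from -0.40 without HP1γ WT replicate 3 to -0.03 without HP1γ WT replicate 2 or HP1α WT replicate 4, and that of H2B from -0.0061 to 0.11. Without HP1α WT replicate 3 the direction of the group turned, to 16 higher and 30 lower of 46 tested with a median of -0.21. The sum over all 70 members was 221 ± 36.5 CPM in HP1α WT and 269 ± 37.2 CPM in HP1γ WT, and without H1f0, H1f2, H2ac18 and H2ac19 it was 47.0 ± 9.84 and 45.7 ± 5.49 CPM.

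Genes that act on histone mRNA and histones were called between the WT groups in both directions, where 12.8% of all genes were called. Of the processing list 3 of 19 were called: Npat, the transcriptional activator of histone genes, was lower in HP1α WT (log2 fold change -0.48, adjusted p = 0.0168), while Lsm11, a U7 snRNP protein (0.41, adjusted p = 0.0383), and Sympk, a scaffold of the cleavage complex (0.28, adjusted p = 0.0366), were higher. Of the chaperone list 4 of 25 were called, with Spty2d1 (-0.64), Nasp (-0.40) and Ubn1 (-0.35) lower and Tonsl (0.30) higher. Of the list of other histone genes 2 of 10 were called, H3f3b, which encodes H3.3 (-0.46, adjusted p = 0.0222), and H2aw (-0.47, adjusted p = 0.0265), both lower. Of the S-phase list 3 of 30 were called, with Ccne2, a cyclin of S-phase entry (-1.02), and Pcna, the clamp of the replication fork (-0.33), lower and Cdk2, the kinase partner of cyclin E (0.34), higher in HP1α WT.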

How the data were processed

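RNA was extracted with a micro column kit, and stranded mRNA libraries of memory CD4+ T cells were sequenced in pairs. Per the study's methods, the authors ran the nf-core RNA-seq workflow, with trimming by Trim Galore and Cutadapt, alignment with STAR to GRCm39 (Ensembl annotation 107) and quantification with Salmon. The authors deposited estimated counts per gene, not normalized, and TPM per gene. Salmon divides reads that fit several genes, which matters here: 53 of the 70 members share at least 150 bases at 98% identity or more with another gene (45 with another member, blastn 2.17.0), and 70.7% of member values were not whole, against 11.6% of all values. H2ac14 is annotated as a pseudogene, 18 members overlap another gene on the same strand and 39 on the opposite strand.

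Estimated counts were rounded and tested across all genes with edgeR 4.0.16 (R 4.3.3) by its quasi-likelihood test with TMM factors, filterByExpr (minimum count 10) and Benjamini-Hochberg adjustment, with calls at an adjusted p under 0.05. Each comparison used its own 8 samples, and the difference between lines all 16. CPM in the text are scaled over all 16 samples. Exact permutation tests were two-sided on mean CPM over 70 arrangements, with a smallest p of 0.0286. Class medians and sums have no test. DESeq2 1.42.0, RLE factors, other filters, a robust fit, a replicate block, a fit over all samples and leaving out each sample were alternatives. The models were tested on simulated data. Coordinates and stop codons came from GENCODE vM39, matched by identifier for all 70 members, and promoters from RefSeq.

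Members and gene lists were chosen with earlier results of these data known. Genes named in the text were those called in any comparison, the 3 members of smallest p in each, the 2 of highest mean TPM in each class, the members outside the clusters, Cbx5 and Cbx3, and up to 4 called genes of each list per comparison. The members without a hairpin and H3c10 were named after their values were seen. H2ac18, named for its pair with H2ac19, is also among the 2 highest H2A genes. Depth ranged from 26694045 to 40199637 counts per sample, and floors and intervals of this kind cover counting error only. No pair of replicates agreed within sampling noise. One marker list is not reported here.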

Additional observations from a re-analysis of the deposited data

Results flagged for a closer look

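In 21 quantities (named members and class sums) and 84 groups of 4 samples, a gap test for a lone sample marked 4, where chance marks about 1 in 20 groups. H2bc9 was at 0.595 CPM in HP1α KO replicate 4, above the other 3 KO samples (0.324 to 0.364 CPM) and still below every HP1α WT sample. H2bc9 was at 0.790 CPM in HP1γ WT replicate 2, below the other 3 (1.02 to 1.04 CPM). The H1 genes summed to 244 CPM in HP1γ WT replicate 2, against 182 to 191 CPM in the other 3, and the H2B genes to 20.4 CPM in that sample, against 16.4 to 17.0 CPM. This library also had the highest S-phase sum of its group, 1699.9 CPM against 1431 to 1492 CPM.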

How the results depend on the processing

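The calls of histone members were 0 under every alternative for HP1α KO against WT and for the difference between lines. For HP1γ KO against WT they were 0 except under DESeq2, which called 1 (H1f0). Between the WT groups 2 were called, but DESeq2 gave 4, the fit over all 16 samples 4, a filter of at least 10 counts in every sample 3 (H2bc4 added), and leaving out 1 sample 0 to 3: 0 without HP1α WT replicate 2 or 4 or HP1γ WT replicate 1 or 2, 1 without HP1α WT replicate 1 and 3 without HP1γ WT replicate 3. The companion lists, with 12 calls there, ranged from 2 to 14: 4 without HP1α WT replicate 1, 7 without replicate 4, 3 without HP1γ WT replicate 1 and 2 without replicate 2.

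Over all genes DESeq2 called 8 in HP1α KO against WT, where edgeR called 0, 265 against 49 in HP1γ KO, 2828 against 1896 between the WT groups and 78 against 8 for the difference between lines.

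In a fit with a replicate block, calls between the WT groups fell to 0 members and 3 companion genes, with 577 genes in all against 1896, and the adjusted p of H2ac19 and H1f2 were 0.0824 and 0.0783. Samples of the same number share only that number: correlations of their deviations ran from 0.0849 to 0.355 in the HP1α line, 0.0496 to 0.170 in the HP1γ line and -0.201 to -0.0831 between the WT groups.

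Medians over members give each gene the same weight, and summed counts let H1f0 and H1f2 lead. With sums, the log2 fold change of all members became -0.027 in HP1α KO, -0.30 in HP1γ KO, -0.28 between the WT groups and 0.28 for the difference between lines, where H1 became 0.38. Leaving out 1 sample, medians ranged from -0.40 to -0.16 for H4 in HP1α KO, from -0.47 to -0.17 for H2A in HP1γ KO, and between the WT groups from -0.21 to 0.16 for all members, -0.19 to 0.33 for H3 and 0.014 to 0.29 for H4. The H1 median of the difference between lines ranged from -0.29 to 0.31. Medians over members with a mean of at least 10 counts, an alternative added after the data were seen, kept their sign in every class and comparison but 1: the H1 median of the difference between lines went from -0.10 to 0.10. The H1 median between the WT groups went from -0.16 to -0.32, and the H3 median of the difference between lines from -0.04 to -0.09. Most members had under 100 counts, which limits what differences could be detected.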

Other observations

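H3c10, an H3 gene of the chromosome 13 cluster singled out after its values were seen, did not pass the filter on low counts within either line. It was listed at 0 in every HP1γ KO library, while HP1γ WT had 0.242, 0, 0.353 and 0.420 CPM. It was at 0.329, 0, 0 and 0 CPM in HP1α KO and 0.148, 0.378, 0 and 0.0927 CPM in HP1α WT. It had at most 15.0 counts in any library, and 6 other members share its sequence, between which estimated counts are divided. No fold change is given.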
